A study of Mus musculus with 2 samples.

Results

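The T cell receptor reaches the cell surface only in complex with CD3, the coreceptors CD4 and CD8 hold the complex at its ligand, and the RAG recombinase cuts the receptor genes so that they can be joined. The loci of these proteins were read here as 4 fixed windows of the mm9 mouse genome for 8 genes: Cd3g, Cd3d and Cd3e (100 kb), Cd4 (110 kb), Cd8a and Cd8b1 (150 kb), and Rag1 and Rag2 (170 kb). Members were the listed TCF1 intervals that overlapped a window by at least 1 bp, and there were 30 of 104683 in all. The rule for the windows uses positions and no measured value, but the windows were chosen with earlier results of these data known. They held 0, 18, 6 and 6 intervals.

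The study mapped TCF1 by chromatin immunoprecipitation and sequencing (ChIP-seq) in γδ T cells sorted from mouse thymus, as a baseline for cells that acquire effector functions. The cells were γδ+, CD24+ and low or negative for CFP, and they came from C57BL/6 mice of the genotype TCRbeta KO, Sox13tg+, Sox13 ECFP KI/+. These animals thus lacked TCRβ, carried a Sox13 transgene and held the ECFP reporter in 1 Sox13 allele. The group was 1 TCF1 library. The series also holds 1 input library from the same genotype with no antibody, which was not analysed here. The promoter of the transgene, the age of the mice and the number pooled are not given in the labels. An interval list holds no expression values, so the sorted cell type was not checked against marker genes. Without a replicate, all values are descriptions of 1 library, and the number of reads behind them is unknown. Shares of windows below come from the list itself and are not tests.

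TCF1, the product of Tcf7, is a T cell transcription factor of the HMG-box family that binds CTTTGA-type DNA. It was cloned as a factor that bound an element of the human CD3E enhancer. In mouse CD8+ T cells, TCF1 and its relative LEF1 help to keep Cd4 silent. CD3γ, CD3δ and CD3ε are signalling chains of CD3. Most γδ thymocytes carry neither CD4 nor CD8. RAG1 and RAG2 act together in immature lymphocytes, and their genes lie side by side.

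RefSeq promoter sequences were at hand for 6 of the 8 genes, with Cd4 and Cd8b1 not among them. Each ran from 250 bases before to 50 bases after the start of the gene, in GRCm38.p6. This is another build than that of the intervals, so no interval was placed on a promoter, and the positions of the sequences must not be set against those of the intervals. The motif CTTTGA was searched on both strands, together with the core CTTTG that it contains. The full motif was in 1 of the 6 promoters and in 16.0% of all 32851 promoter entries. The core was in 3 of the 6 and in 53.9% of all entries. Neither share stood apart from that of promoters in general, but 6 promoters are too few to show likeness. The 3 promoters with a core match are shown, and of these only the Cd3d promoter holds the full motif. Capitals mark CTTTG or CAAAG, and the added A or T of the full motif.
Cd3d: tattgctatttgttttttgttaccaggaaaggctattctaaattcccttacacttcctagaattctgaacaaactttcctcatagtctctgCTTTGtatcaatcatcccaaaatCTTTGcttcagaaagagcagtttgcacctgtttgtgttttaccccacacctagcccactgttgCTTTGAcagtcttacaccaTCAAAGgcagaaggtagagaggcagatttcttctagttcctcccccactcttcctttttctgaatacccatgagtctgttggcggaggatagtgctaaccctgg
Cd3e: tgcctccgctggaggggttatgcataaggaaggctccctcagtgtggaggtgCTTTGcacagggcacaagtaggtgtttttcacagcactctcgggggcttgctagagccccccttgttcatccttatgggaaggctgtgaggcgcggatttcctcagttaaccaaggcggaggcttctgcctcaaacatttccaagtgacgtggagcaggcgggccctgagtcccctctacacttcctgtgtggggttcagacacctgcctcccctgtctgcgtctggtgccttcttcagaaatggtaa
Cd8a: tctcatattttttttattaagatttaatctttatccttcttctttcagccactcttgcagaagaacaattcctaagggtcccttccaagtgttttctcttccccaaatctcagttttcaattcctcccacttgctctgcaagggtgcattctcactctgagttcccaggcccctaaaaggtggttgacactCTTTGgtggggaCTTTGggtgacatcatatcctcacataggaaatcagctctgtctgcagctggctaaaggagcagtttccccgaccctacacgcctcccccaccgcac
The Cd3d sequence is chr9:44981536-44981835 on the + strand. It holds the full motif at bases 178 to 183, and on the other strand at bases 197 to 202, counted from 1 at the 5′ end of the printed run. Its other 2 cores begin at bases 92 and 115. The Cd3e sequence, chr9:45009562-45009861 on the - strand, holds 1 core at bases 53 to 57. The Cd8a sequence, chr6:71373177-71373476 on the + strand, holds 2, beginning at bases 192 and 204. The promoter sequences of Cd3g, Rag1 and Rag2 held no core. A match is a description of the letters, not a site, and a missing match says nothing of binding elsewhere.

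No TCF1 interval was listed in the window of the CD3 genes. In the GRCm38 gene order Cd3g, Cd3d and Cd3e follow one another, with Ube4a before Cd3g and Mpzl2 after Cd3e. The window on chromosome 9, from 44750001 to 44850000, held 0 intervals in the copy of the list analysed here. That copy may lack rows of the list the authors made, so the 0 and the empty stretch described next hold for the copy only. The rest of chromosome 9 had 4.33 intervals per 100 kb, and windows of the same size laid edge to edge along it held a median of 3, with quartiles at 1 and 5. A window with 0 intervals was common, since 140 of 1209 windows (11.6%, this one included) held none.

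The intervals nearest to the CD3 window marked out a longer empty stretch. The last interval before it, from 44728301 to 44728700, had a score of 431. A score has no stated unit and grows with width, so height, the score per 50 bp of interval, is used below, and it was 53.9 here. The next interval, from 44850451 to 44850750, began 0.45 kb beyond the window and had a height of 31.6. Between them lay 121.75 kb with no listed interval. In the copy analysed, 149 of the 5231 stretches between neighbours on chromosome 9 (2.85%) were at least as long, against a median of 9.05 kb and a longest of 475.9 kb. This comparison was chosen after the values were seen. Those at least as long as this one made up 22.9% of the length between its outermost intervals. Both sides of the window were well filled. The adjoining 500 kb held 64 intervals on the left, with a median height of 41.1, and 30 on the right, with a median height of 37.9. A window widened by 20 kb at each side held 2 intervals. The threshold of the list is unknown, rows may be missing from the copy and the input was not analysed here, so an empty stretch does not show that TCF1 was absent from the CD3 genes.

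**Figure D1:**
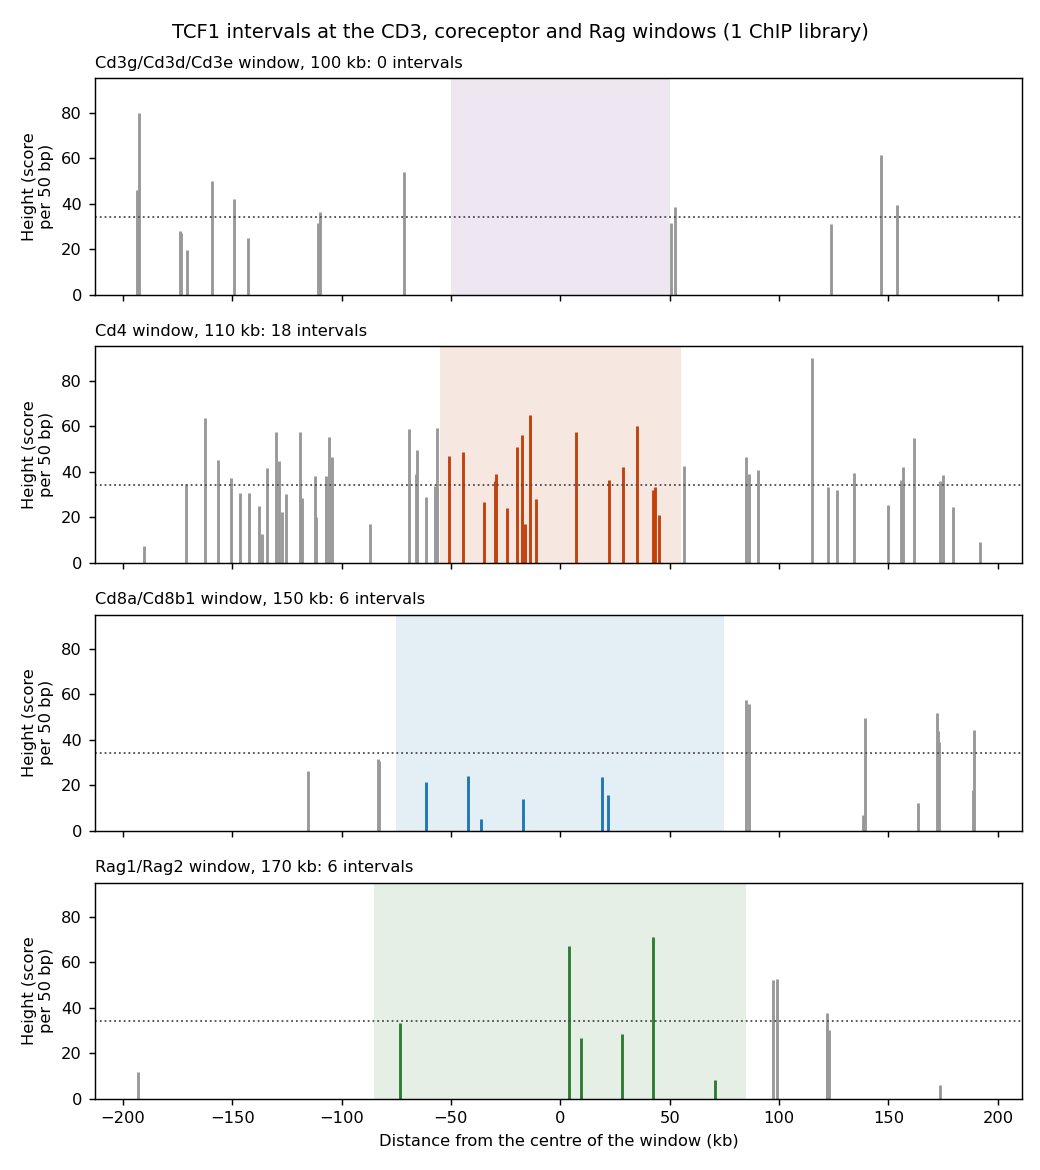
Height of each TCF1 interval (score per 50 bp, vertical axis) against its distance in kb from the centre of the window, for the 4 windows (shaded) and their surroundings. Coloured lines are the members, grey lines other intervals, and the dotted line is the median height of all 104683 intervals (34.0). The CD3 window is empty, the Cd4 window holds 18 intervals, all 6 intervals of the Cd8 window lie below the dotted line, and 2 of the 6 in the Rag window reach 67.1 and 71.0.

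**Figure D2:**
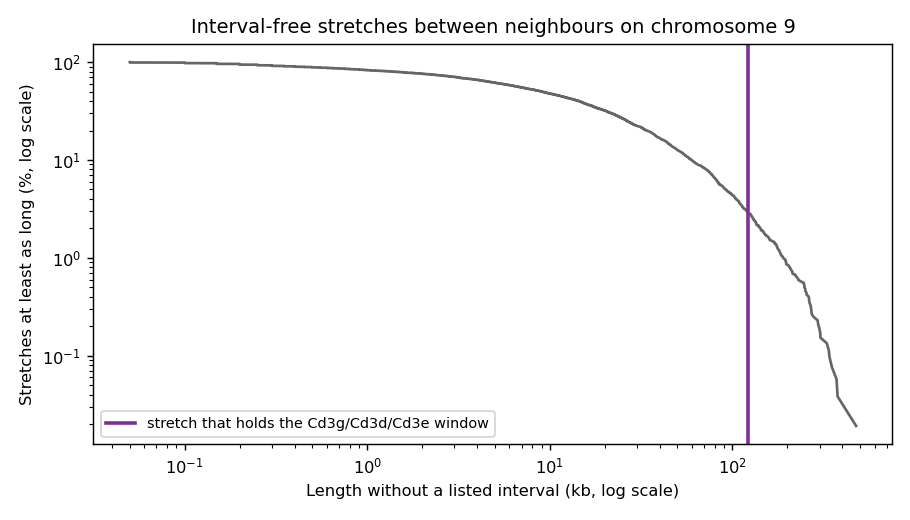
Share of the 5231 interval-free stretches on chromosome 9 (percent, log scale) that are at least as long as the length on the horizontal axis (kb, log scale). The vertical line marks the stretch of 121.75 kb that holds the CD3 window, which 2.85% of stretches equal or exceed. A stretch that holds an empty window of 100 kb must be at least that long, so a small share was fixed in advance. Of the windows of 100 kb on chromosome 9, 11.6% were empty. Lengths are those in the copy of the list analysed here, which may lack rows.

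The Cd4 window held the most TCF1 intervals of the 4. Cd4 encodes the coreceptor for class II MHC. The window on chromosome 6, from 124770001 to 124880000, had 18 intervals, or 16.4 per 100 kb (95% exact Poisson interval 9.70 to 25.9, counting error only and treating intervals as independent). The rest of chromosome 6 had 3.41 per 100 kb, so the ratio was 4.79. Of 1330 windows of 110 kb on the chromosome, 26 (1.95%) held at least as many, and the median of the other windows was 3. Intervals covered 5350 bp, or 4.86% of the window, against 0.893% of the rest of the chromosome, and 18 windows (1.35%) had at least as much under intervals.

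The surroundings of Cd4 were dense as well. The 500 kb to the left held 42 intervals (8.40 per 100 kb) and the 500 kb to the right held 77 (15.4 per 100 kb). On all autosomes, 4.15% of windows of this size held at least as many intervals as the Cd4 window. In the GRCm38 order the protein-coding genes Gnb3, P3h3 and Gpr162 precede Cd4, and Lag3, Ptms and Mlf2 follow it. Lag3 encodes an inhibitory receptor related to CD4. Which of these genes an interval lies in or next to was not analysed here. The 18 intervals belong to the window, and none was assigned to Cd4.

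**Figure D3:**
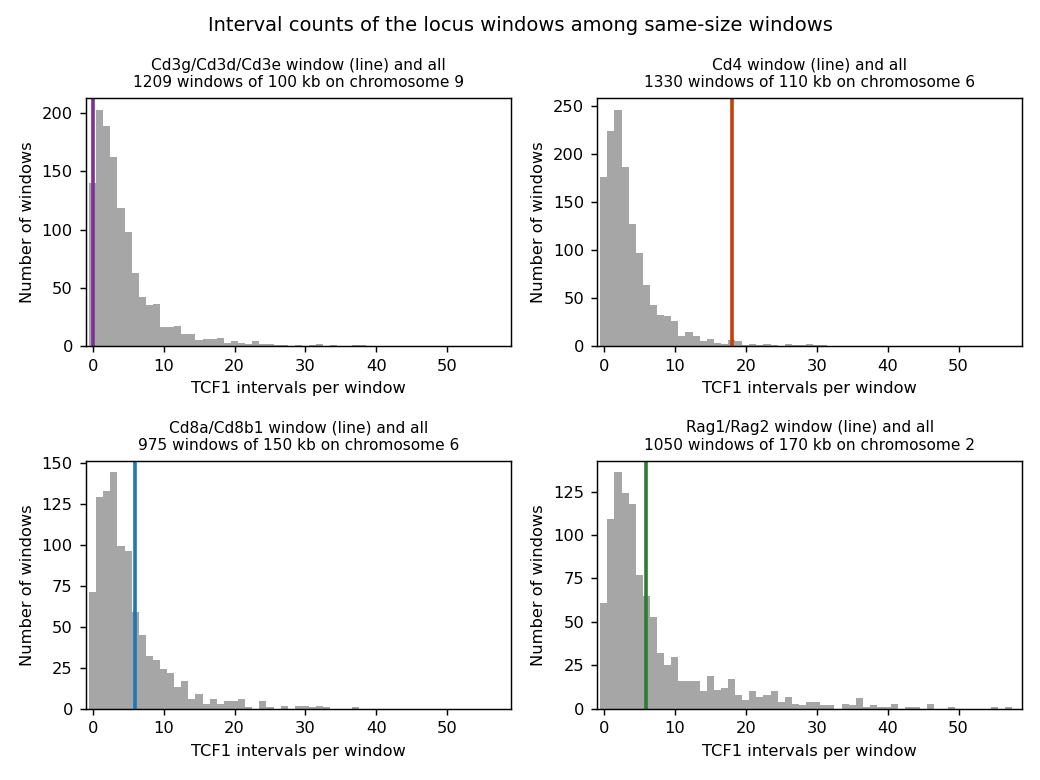
Number of TCF1 intervals per window (horizontal axis) for all windows of the same size on the same chromosome (grey bars, number of windows on the vertical axis), with the locus window as a coloured line, 1 panel for each of the 4 windows. The CD3 window sits at 0 with 140 of 1209 windows, the Cd4 window at 18 in the sparse upper end, and the Cd8 and Rag windows at 6, within the main body.

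In height the intervals of the Cd4 window lay within the range of their chromosome. Their median was 37.6, with a lowest of 16.9 and a highest of 65.0, against a median of 31.9 and quartiles of 19.3 and 44.2 on the rest of chromosome 6. Of the 18, 11 (61.1%) stood above the median height of the whole list, against 45.2% of the rest of the chromosome. Among the 371 windows with 5 or more intervals, 133 (35.8%) had at least as high a median height. Of the 26 windows with at least as many intervals, 18 (69.2%) had a median height at least as high as the Cd4 window. The Cd4 window is itself in both counts, and the comparison was chosen after the values were seen. The median height over the other 25 was 39.1.

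The highest interval in the Cd4 window lay from 124811001 to 124811500. It was 500 bp wide, scored 650.25 and had a height of 65.0, which 4.27% of all listed intervals reached. Of the 1330 windows, 149 (11.2%) had a highest interval at least as high. The next was 48.95 kb further along, from 124860001 to 124860400, with a height of 60.03. An interval from 124832051 to 124832350, near the middle of the window, had a height of 57.4. Those from 124807051 to 124807600 and from 124804951 to 124805300 had heights of 56.1 and 50.7, and both lay within 7 kb of the highest one. The widest interval, from 124867101 to 124867800, measured 700 bp and had a height of 32.1. The other 12 had heights from 16.9 to 48.6.

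Split at the longest stretches without an interval, the 18 intervals formed a left group, a single interval and a right group along the chromosome. This split was chosen after the positions were seen, and whether the intervals cluster was not tested. The left group held 11, from 124774201 to 124813700, with the highest one near its end. A stretch of 18.35 kb without an interval followed, then the interval at 124832051, then 14.8 kb without one. The remaining 6 lay from 124847151 to 124870400. The closest neighbours within the window were the intervals that ended at 124795350 and began at 124795501. With intervals within 1 kb of each other joined, 0.977% of windows held at least as many intervals as the Cd4 window.

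The Cd8 window held slightly more intervals than the median window of its size, and all of them were below the median height of the list. Cd8a and Cd8b1 encode the α and β chains of the coreceptor for class I MHC. In the GRCm38 order they are neighbours, with Gm1070 before Cd8b1 and Rmnd5a after Cd8a. Which gene an interval lies in or next to was not analysed here, so the intervals belong to the window. The window on chromosome 6, from 71230001 to 71380000, had 6 intervals, or 4.0 per 100 kb (1.47 to 8.71), against 3.42 per 100 kb on the rest of the chromosome. Of 975 windows of 150 kb, 303 (31.1%) held at least as many, and the median of the other windows was 4. Covered length was 1100 bp, which 440 windows (45.1%) reached.

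All 6 intervals of the Cd8 window can be given. In order along the chromosome, the interval from 71243601 to 71243850 had a height of 21.6. The interval from 71262601 to 71262700 was the highest of the window, at 24.0, but only 100 bp wide. The interval from 71268551 to 71268750 was the lowest, at 5.38, which 96.8% of all listed intervals reached. The interval from 71287751 to 71287950 had a height of 13.8. A stretch of 36.2 kb without an interval separated it from the pair that closed the window. Of that pair, the interval from 71324151 to 71324400 had the highest score of the window, 118, with a height of 23.6. Its neighbour from 71326751 to 71326850 had a height of 15.75.

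Not 1 of the 6 reached the median height of the whole list, whereas 45.4% of the rest of chromosome 6 did. The median height in the Cd8 window was 18.7, against 31.9 on the rest of the chromosome. Of 399 windows with 5 or more intervals, 341 (85.5%) had at least as high a median, and 726 of all 975 windows (74.5%) had a highest interval at least as high. Of the 303 windows with at least 6 intervals, 5 (1.65%, the Cd8 window included) had a highest interval no higher than this, and the median of the highest over the other 302 was 60.1. This last comparison was chosen after the values were seen, and it depends on where the window ends. The next interval to the right, from 71389801 to 71390200, lay 9.80 kb outside and had a height of 57.6. Widened by 20 kb at each side, the window held 10 intervals with a highest of 57.6. With the list limited to the upper 50% by score, the Cd8 window held 0 intervals.

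Both coreceptor windows are on chromosome 6, so their values are set side by side. The Cd4 window had 16.4 intervals per 100 kb and the Cd8 window 4.0, a difference with no test, since intervals of 1 library are not replicates. Heights overlapped only in part, from 16.9 to 65.0 in the Cd4 window and from 5.38 to 24.0 in the Cd8 window. The flanks differed too, with 8.40 and 15.4 intervals per 100 kb beside the Cd4 window and 2.80 and 5.60 beside the Cd8 window. Whether the wider region or the coreceptor genes carry the difference was not tested.

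**Figure D4:**
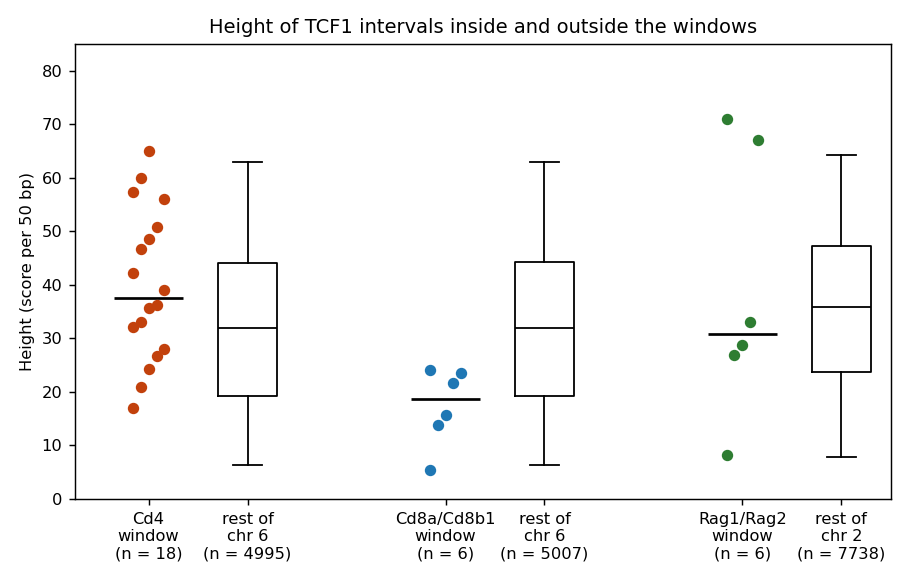
Height of TCF1 intervals (score per 50 bp) in the Cd4, Cd8 and Rag windows (points, with their median as a line), each beside the remaining intervals of its chromosome (box: quartiles and median, whiskers: 5th and 95th percentiles). The Cd4 points run from 16.9 to 65.0, the 6 Cd8 points all lie at or below 24.0, and 2 Rag points at 67.1 and 71.0 stand apart from the other 4.

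The Rag window held 6 intervals, and 2 of them were in the upper 5% of the list by height. RAG1 and RAG2 form the recombinase that cuts DNA at the Tcrg, Tcrd, Tcrb and Tcra segments and at the immunoglobulin genes. In the GRCm38 order the genes adjoin, with Iftap before Rag2 and Traf6 after Rag1. Which gene an interval lies in or next to was not analysed here. The intervals therefore belong to the window, and none was assigned to Rag1 or Rag2. The window on chromosome 2, from 101430001 to 101600000, had 6 intervals, or 3.53 per 100 kb (1.30 to 7.68), against 4.33 on the rest of chromosome 2. Of 1050 windows of 170 kb, 425 (40.5%) held at least as many, and the median of the other windows was 4, with quartiles at 2 and 9. Covered length was 1750 bp, which 377 windows (35.9%) reached.

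The highest interval of the Rag window lay from 101557251 to 101557550. It scored 425.75 over 300 bp, for a height of 71.0, and 2.15% of all listed intervals reached it. This was also the highest of the 30 members. Of the 1050 windows, 142 (13.5%) had a highest interval at least as high. The second, from 101518401 to 101519100, was 700 bp wide and had the highest score among the members, 940.0. Its height was 67.1, which 3.37% of the list reached. Its midpoint lay at -38.65 kb from that of the other, toward the start of the chromosome. At least 2 intervals at or above 67.1 were found in 52 of the 1050 windows (4.95%), a comparison chosen after the values were seen.

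The other 4 Rag intervals were lower. The interval from 101441501 to 101441750 had a height of 33.1 and stood alone, 76.65 kb before the next. Whether Rag1 and Rag2 lie in that stretch without a listed interval was not analysed here. The intervals from 101524551 to 101524800 and from 101542901 to 101543050 lay between the pair of high ones and had heights of 26.8 and 28.7. The last, from 101585801 to 101585900, had a height of 8.25. Because 4 of 6 were below the median of the list, the median height of the window was 30.9, against 35.9 on the rest of chromosome 2. Of 502 windows with 5 or more intervals, 363 (72.3%) had at least as high a median. The median height was 42.6 for the window widened by 20 kb at each side, where the share was 17.0%, and 47.9 for the window narrowed by 20 kb at each side. The narrowed window held 4 intervals, fewer than the 5 needed for a share. Both medians lie within the range of the 6 heights, 8.25 to 71.0, which is also the order-statistic interval of a median of 6 values. The narrowed window holds a part of these 6 intervals, so its median could not lie outside that range.

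The Rag window stood beside a sparse region on 1 side. The 500 kb to the left held 7 intervals, or 1.40 per 100 kb, and the nearest of them ended 107.95 kb before the window, with a height of 11.6. To the right the 500 kb held 26 (5.20 per 100 kb), and the nearest, from 101612201 to 101612400, had a height of 52.1.

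Across the 4 windows, the 30 intervals included 13 above the median height of the whole list. In the upper 10% of the list by height were 5 of them (16.7%), and 3 were in the upper 5%, namely the pair in the Rag window and the highest in the Cd4 window. None was in the upper 1%. These shares describe 30 intervals that share neighbourhoods and are not independent of each other.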

How the data were processed

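ChIP-seq for TCF1 was done on 1000000 sorted thymocytes crosslinked with 1% formaldehyde, with 17 cycles of library PCR, per the labels' protocols. The authors deposited 1 list of intervals, each with a score, for the TCF1 library. The copy analysed held 104683 intervals and may lack rows. The build is mm9, per the submitters' processing notes. Which aligner, peak caller and threshold were used, whether the input entered, and what a score means is not given in the sources used here. Each deposited score was a multiple of 0.25 (100% of them, within a relative tolerance of 1e-06). Starts lay on a 50 bp grid and ends 1 bp short of it, so the end base was counted as inside the interval. All positions start from 1. The read depth is unknown.

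Members and windows were chosen with earlier results of these data known. Each window was set beside windows of its size laid edge to edge on its chromosome, in phase with it, between the first and last interval, itself included. Median heights used windows with at least 5 intervals. Named intervals were the 5 highest and the widest of a window, or all where it held 8 or fewer. Alternatives changed the list, the joining of intervals, the window and the set of windows. Gene names and order came from RefSeq for GRCm38.p6, and promoters from the same build, with all 8 gene symbols found in the gene table. Software was scipy 1.17.1, pandas 2.3.3 and numpy 2.4.6 under Python 3.11.15, with plots from matplotlib 3.10.9.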

Additional observations from a re-analysis of the deposited data

How the results depend on the processing

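Under the alternatives 65 of 200 values moved, and the other 135 stayed close. Close meant within 1.5 times for counts, covered length and the highest interval, inside an order-statistic interval of the median, or inside the 95% Clopper-Pearson interval for shares of windows and promoters. Some of the 135 could not have moved. The CD3 window, with 0 intervals, holds 0 in any part of the list and when narrowed. In the Cd8 and Rag windows the order-statistic interval spans all 6 values, so the median of any part of them stays inside. No interval there crosses an edge or lies within 1 kb of another, so joining and midpoints could not change their counts. Other changes had a fixed direction. A list cut by score cannot raise counts or covered length, or lower the number of empty windows. Each promoter with CTTTGA also holds CTTTG. The tally of 65 and 135 is thus no measure of stability. In a window left with no interval, counts and covered length were 0, and heights and widths were not computed. For Cd8 no share of windows was then computed either. Shares for the median height were not computed where fewer than 5 intervals were left. No paired analysis was possible because only 1 library was analysed. A choice by score or a change of window alters the same-size windows too, and beyond that the cause of the moves was not tested. Taking midpoints or overlapping windows in steps of 10 kb moved nothing.

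For the CD3 window, the widened window held 2 intervals over 450 bp. The share of windows with 0 intervals (11.6%) was 14.1% on all autosomes, 32.1% and 70.6% in the upper 50% and 10% by score, and 22.8% for the window narrowed by 20 kb at each side.

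For Cd4, the upper 10% by score left 3 intervals over 1450 bp, with a median height of 60.03 and a median width of 500 bp, and the narrowed window had 3150 bp covered. The share of windows with at least as many intervals (1.95%) was 4.15% on all autosomes, 1.20% in the upper 50%, 0.977% after joining within 1 kb and 1.23% widened. For covered length (1.35%) it was 2.92% on all autosomes, 3.46% in the upper 10%, 2.63% joined and 0.717% widened. For the highest interval (11.2%) it was 14.4% on all autosomes, 8.87% in the upper 10%, 8.35% joined, 7.60% narrowed and 14.3% widened. For the median height (35.8%) it was 42.5% on all autosomes, 55.5% in the upper 50%, 19.2% joined, 45.1% narrowed and 26.0% widened.

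For Cd8, both upper sets left 0 intervals and 0 bp, and the widened window held 10 over 2200 bp with a highest of 57.6. The share with at least as many (31.1%) was 35.9% on all autosomes, 25.5% joined, 27.4% narrowed and 19.9% widened. For covered length (45.1%) it was 48.7% among windows with at least 1 interval, 49.4% joined and 25.6% widened. For the highest interval (74.5%) it was 80.3% among windows with at least 1 interval, 66.8% narrowed and 29.4% widened. For the median height (85.5%) it was 89.2% on all autosomes, 93.7% narrowed and 73.1% widened.

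For Rag, the upper 10% left 1 interval of 700 bp. The share with at least as many (40.5%) was 33.7% in the upper 50%, 35.9% joined, 48.3% narrowed and 36.6% widened. For covered length (35.9%) it was 29.6% and 27.1% in the upper 50% and 10%, and 40.4% joined. For the highest interval (13.5%) it was 10.4% joined, 10.6% narrowed and 15.9% widened. For the median height (72.3%) it was 64.3% on all autosomes, 61.0% joined and 17.0% widened. The share of promoters with the motif (16.0%) was 53.9% for the 5-base core.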
